A study of Homo sapiens with 4 samples.

Results

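Among the genes measured in HEK293 cells, an established line of human embryonic kidney origin, 171 carried a symbol made of LINC and a number, the systematic name for long intergenic non-coding RNA genes. The genes described here are the 55 of these whose mean level over all 4 libraries was at least 1 TPM (a transcript abundance per length, scaled to the same sum in each library). They were 0.387% of the 14208 features that passed the same threshold, of 20457 listed. Of the other LINC symbols, 24 were listed at 0 in every library and 92 were above 0 but below the threshold. The members were thus chosen by their measured level, which is given as a description. A gene low in control cells could enter through the knockdown libraries: 7 of the 55 had a control mean under 1 TPM and a knockdown mean above it.

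The study asked what loss of CNOT4 does to gene expression in relation to codon usage. CNOT4 is a RING-type ligase for ubiquitin, known as a partner of the CCR4-NOT complex, which shortens poly(A) tails. Both groups were HEK293 cells exposed to 10 nM siRNA for 72 h: a negative control siRNA in the 2 libraries here called siControl (genotype label WT), and siRNA against CNOT4 in the 2 called siCNOT4 (genotype label CNOT4 knockdown). The libraries were made from poly(A) RNA, so transcripts without a tail are not represented. Nothing in the labels says whether the 2 libraries of a group came from separate cultures, so p-values measure the spread between these libraries, which may be technical.

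Long intergenic non-coding RNAs are transcribed by RNA polymerase II from units of their own between coding genes, and most are capped, spliced and polyadenylated like mRNA. They are usually scarce, and many are cleared in the nucleus by the RNA exosome. A few have a known role in RNA metabolism, the best studied here being LINC00657, or NORAD, an abundant cytoplasmic RNA that binds the translational repressor PUM2. Several genes first named LINC were later found to encode small proteins.

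NORAD binds PUM2 through repeats of the element TGTANATA, and it had far more of them than the other LINC genes described here. Its longest GENCODE 29 transcript (GRCh38, chromosome 20, minus strand, 5339 nt) had 15 matches on the sense strand. Of these, 6 are shown with the element in capitals and 9 bases on either side, named by the position of the element's first base from the transcript's 5′ end. They include 2 adjacent pairs and 3 different bases at the free position.
NORAD 1442: acttatctgTGTATATAgtgtacata
NORAD 1451: tgtatatagTGTACATAaaggacaga
NORAD 2972: accctactgTGTATATAgcggacaaa
NORAD 3275: actgtgctgTGTATATAgtgtatata
NORAD 3284: tgtatatagTGTATATAagcggacat
NORAD 4599: tagcctattTGTAAATAcctttgtta
Of the 48 LINC genes with a GENCODE 29 transcript, 9 had at least 1 match (18.8%). The share was 9.48% of 7629 lincRNA genes and 28.6% of 19922 protein-coding genes. Median transcript lengths were 2615, 704 and 3157 nt in the same order, and the sets were not matched for length. Without NORAD the most in any of the LINC genes was 2, in LINC00667, and their density was 0.0614 matches per kb. The density was 0.101 per kb over the lincRNA genes, NORAD among them, and 0.121 per kb over the protein-coding genes. NORAD itself had 2.81 per kb. The most matches in 1 transcript were 16 among lincRNA genes and 17 among protein-coding genes, so NORAD's 15 was not the highest count of either set. A match to the letters is not evidence of binding.

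**Figure D1:**
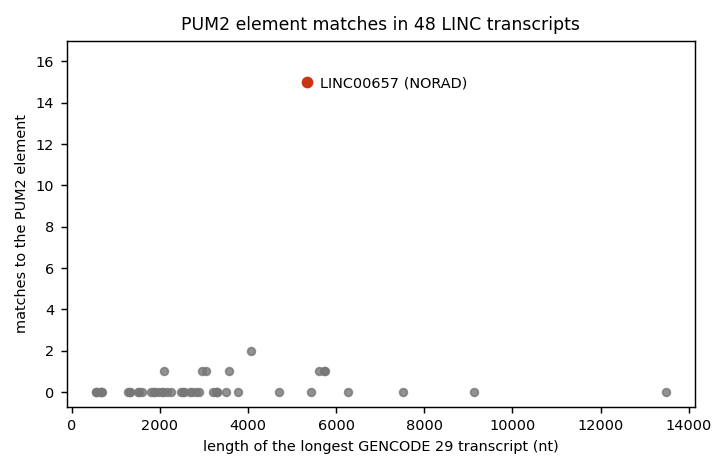
Number of matches to the PUM2 element TGTANATA (y axis) against the length of the longest GENCODE 29 transcript in nt (x axis) for the 48 LINC genes with a transcript. NORAD, in red, has 15 matches, and every other gene, in grey, has 2 or fewer whatever its length.

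RefSeq promoter windows (GRCh38.p14, 250 bases before to 50 after the start) were given for 44 of the 55 genes. Their median GC content was 58.7%, against 58.3% over all 27305 windows. The E-box CACGTG, on both strands, was in 5 of the 44 (11.4%), against 7.43% of all windows: LINC00471, LINC00493, LINC00634, LINC00652 and LINC00657. The CREB/ATF motif TGACGTCA was in 2 (4.55%, against 1.98%), LINC00265 and LINC00630. The CARE motif TGATGNAA was in 2 (4.55%, against 3.67%), LINC00116 and LINC00478. The EGR motif GCGNGGGCG was in 3 (6.82%, against 9.28%), LINC00341, LINC00526 and LINC00667. The E-box and the CREB/ATF motif share their central letters, and no motif contains another. The shares among LINC genes rest on few windows.
The windows of a called gene and of NORAD are shown because both hold an E-box, and that of LINC00667 because 170 of its bases are also the promoter window of the divergent gene LINC00526. Motifs are in capitals.
LINC00652, chr20:18794535-18794834, minus strand: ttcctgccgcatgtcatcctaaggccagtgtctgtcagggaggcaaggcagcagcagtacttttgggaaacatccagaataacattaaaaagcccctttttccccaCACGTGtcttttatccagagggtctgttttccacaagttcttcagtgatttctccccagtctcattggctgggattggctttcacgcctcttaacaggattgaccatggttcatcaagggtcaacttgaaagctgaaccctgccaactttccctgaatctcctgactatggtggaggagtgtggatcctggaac
LINC00657, chr20:36050911-36051210, minus strand: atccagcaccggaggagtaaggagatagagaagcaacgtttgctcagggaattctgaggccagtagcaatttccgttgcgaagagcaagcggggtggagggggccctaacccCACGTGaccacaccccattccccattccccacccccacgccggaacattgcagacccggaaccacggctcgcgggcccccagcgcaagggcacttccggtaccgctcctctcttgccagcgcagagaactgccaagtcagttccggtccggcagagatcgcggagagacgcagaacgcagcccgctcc
LINC00667, chr18:5237850-5238149, plus strand: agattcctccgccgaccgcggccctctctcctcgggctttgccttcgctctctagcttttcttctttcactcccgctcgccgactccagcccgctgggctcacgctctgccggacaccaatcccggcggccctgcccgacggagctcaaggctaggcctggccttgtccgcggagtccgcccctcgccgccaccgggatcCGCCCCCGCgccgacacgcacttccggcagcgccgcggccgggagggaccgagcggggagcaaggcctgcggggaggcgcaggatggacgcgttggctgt
The E-box lies 144 bases before the start of LINC00652 and 138 before that of NORAD. The EGR match shown for LINC00667 is the same 9 bases that LINC00526 has on its own strand. LINC00526 had 4.31 and 4.89 TPM in siControl and 6.39 and 7.66 TPM in siCNOT4, and LINC00667 had 8.56 and 6.85 against 11.8 and 13.9 TPM. The siCNOT4 libraries were above both siControl libraries for both genes, but neither difference passed the test (limma on log2(TPM + 1), adjusted p = 0.177 and 0.123).

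The libraries held 25725806 to 29027938 reads, as recovered from the steps of the TPM values up to a common factor. Replicate 2 of siControl stood apart: its 100 highest genes took 39.8% of all TPM, against 33.1% in replicate 1 and 26.6% and 25.5% in siCNOT4. CNOT4 itself was at 6.43 and 4.73 TPM in siControl and 3.38 and 3.81 TPM in siCNOT4, a ratio of group means of 0.644. The groups did not overlap, but on log2(TPM + 1) the difference of -0.51 (SE 0.26) did not pass (limma, adjusted p = 0.184). With trimmed-mean (TMM) scaling it was -0.95 (adjusted p = 0.0359), and over all alternatives the adjusted p lay between 0.00975 and 0.743. Of 8 HEK293 markers 6 were at 1 TPM or more in every library, with PAX8 and NEFM lower. The 8 summed to 1845 and 1579 TPM in siControl and 1300 and 1306 TPM in siCNOT4. Most of that gap was in VIM, the intermediate filament of mesenchymal cells, at 917 and 650 against 369 and 354 TPM. The summed level of 6 fibroblast markers was 1.95 and 1.35 TPM in siControl and 9.92 and 10.2 TPM in siCNOT4. Most of this sum was COL1A1 and LUM in siCNOT4, while none of the 6 was at 1 TPM or more in every library and COL1A2 was at 0.0152 TPM at most. Leukocyte, endothelial and hepatocyte markers summed to at most 1.71 TPM. The part of these differences in the LINC results was not tested.

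Most LINC genes were scarce RNAs, and 2 were at 100 TPM or more on average. Their median level over the 4 libraries was 3.68 TPM, against 19.3 TPM for all features tested, and 35 of 55 (63.6%) were under 5 TPM, against 19.8% of all features. The small-protein gene LINC00493 and NORAD supplied 51.9% and 55.8% of the summed LINC level in siControl and 47.9% and 48.8% in siCNOT4. The 55 genes summed to 718 and 719 TPM in siControl and to 985 and 1024 TPM in siCNOT4. Without these 2 genes the sums were 345 and 318 TPM against 514 and 525 TPM, a ratio of means of 1.57. On either count both siCNOT4 libraries lay above both siControl libraries. These sums are of TPM as given and were not rescaled. The TMM factors were 0.968 and 0.706 in siControl and 1.19 and 1.23 in siCNOT4. Dividing by them would raise the siControl sums and lower those of siCNOT4. On either count siControl replicate 2 would then have the highest sum of the 4 libraries. The groups would overlap, so the gap depends on scaling. The share of LINC RNAs in all TPM was still only 0.0718% and 0.0719% in siControl and 0.0985% and 0.102% in siCNOT4. LINC symbols above 0 numbered 104 and 103 of 171 in siControl and 125 and 126 in siCNOT4. Over all features the numbers above 0 were 17661 and 17531 against 18667 and 18629, and the siCNOT4 libraries held more reads (29027938 and 28737748, against 27634660 and 25725806). The part of depth in these counts was not tested.

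**Figure D2:**
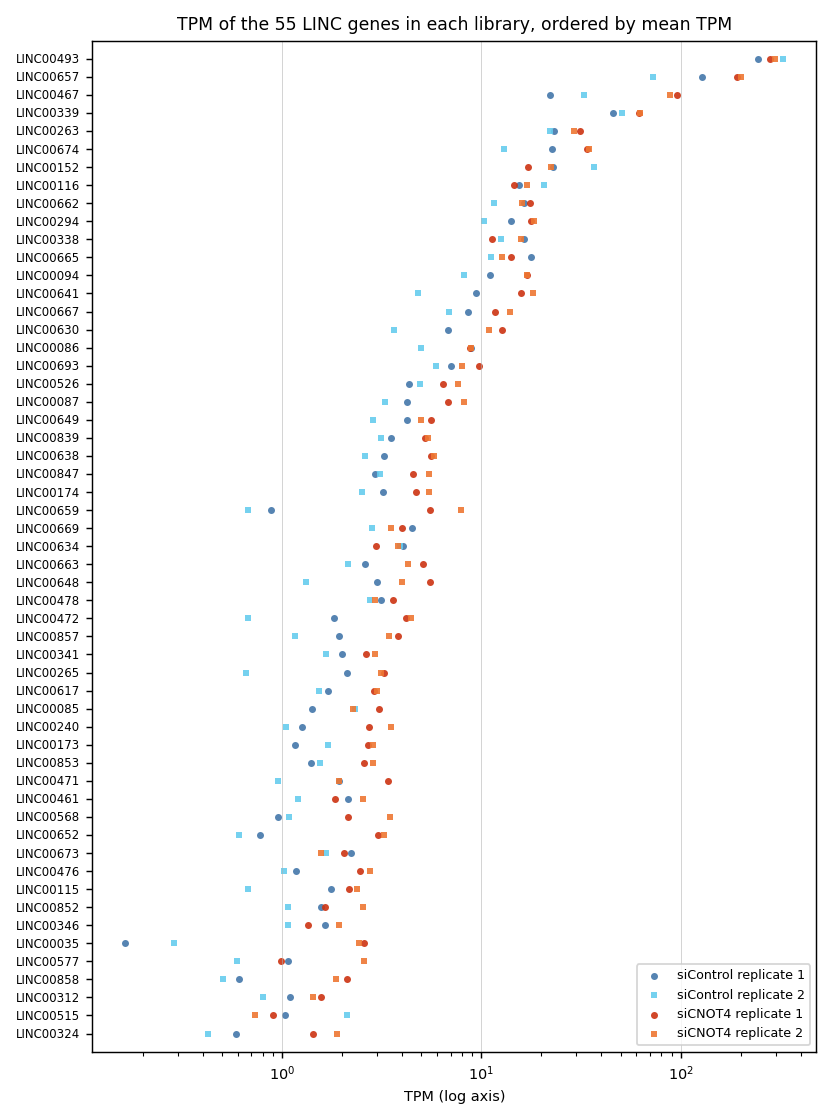
TPM (x axis, log scale) of the 55 LINC genes in each library, ordered by mean TPM (y axis); blue and light blue mark siControl replicates 1 and 2, red and orange siCNOT4 replicates 1 and 2. LINC00493 and LINC00657 (NORAD) lie above 70 TPM in every library, most genes lie under 5 TPM, and for 38 genes both siCNOT4 points lie to the right of both siControl points.

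Between the groups, 9 of the 55 LINC genes rose in siCNOT4 and none fell (limma on log2(TPM + 1), Benjamini-Hochberg adjusted p under 0.05 over all features), and they are referred to as called. The called share was 16.4%, against 11.3% of all 14208 features called higher and 1.3% called lower, so the share among LINC genes was near that of all features. At an unadjusted p under 0.05, 25 LINC genes were higher and 0 lower, against 38% and 4% of all features. Positive differences were seen for 48 of the 55, against 81.2% of all features. The groups did not overlap for 38 genes with siCNOT4 above (66.4% of all features) and for 3 with siCNOT4 below (10.6% of all features), which were LINC00152, LINC00515 and LINC00634. The median difference was 0.59 on the log2(TPM + 1) scale, against 0.50 over all features.
The direction over all features depended on scaling, as did that of the LINC genes. TMM scaling moved the median of all features from 0.50 to 0.0087 and that of the LINC genes to 0.22, with 3 called higher and 0 lower. Calls over all features were then 4.45% higher and 4.33% lower. Under quantile normalization the LINC median was -0.049 beside 0.019 over all features, with 4 called higher and 1 lower, and all features split into 7.11% higher and 8.23% lower. The count of 9 also depended on single libraries: it was 39 without siControl replicate 1, 32 without siControl replicate 2, 4 without siCNOT4 replicate 1 and 5 without siCNOT4 replicate 2. The shares of all features called higher were then 70.9%, 47.2%, 3.09% and 2.91%. In the same order 3, 1, 0 and 0 LINC genes were called lower, against 8.73%, 10.3%, 0.26% and 0.26% of all features. With a pseudocount of 0.1 there were 4 called higher (3.36% of all features), and with no trend in the variance prior 4 (4.95%). With no filter on low values 5 of the same 55 were called higher (4.29% of 19734 features). Of the 20 with a mean of at least 5 TPM 1 was called under that filter (0.957% of all features). A count model on the recovered reads (limma voom) called 8 higher (11.7% of all features).

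**Figure D3:**
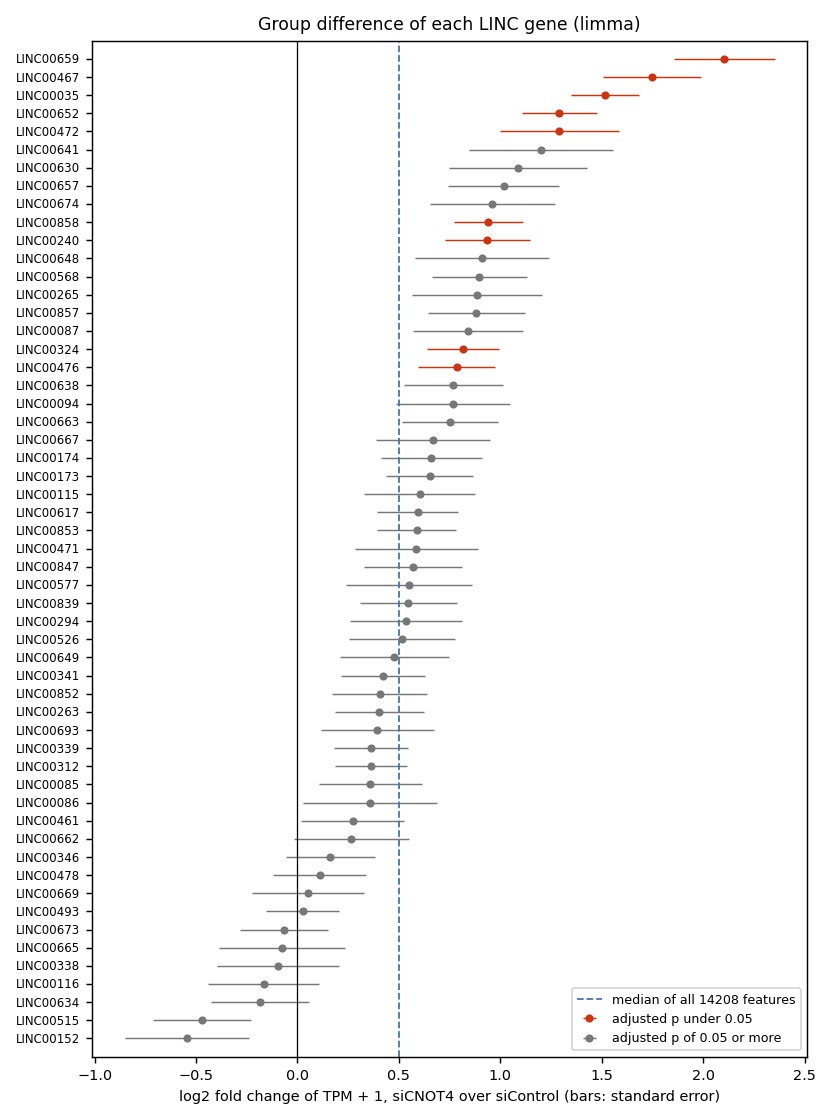
Difference between groups, as log2 fold change of TPM + 1 for siCNOT4 over siControl (x axis, bars are standard errors from limma), for each of the 55 LINC genes (y axis). The 9 called genes are in red, the dashed line is the median of all 14208 features at 0.50, and the lowest gene is LINC00152 at -0.54.

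The called gene of largest difference was LINC00659, on chromosome 20. It had 0.874 and 0.674 TPM in siControl, from 8 and 7 reads, and 5.51 and 7.90 TPM in siCNOT4, from 48 and 68 reads. The difference was 2.10 on log2(TPM + 1) (SE 0.25, adjusted p = 0.0227 by limma), and the ratio of group means was 8.66, with a 95% counting interval of 5.04 to 16.0. The groups were far apart relative to the gap within either. Its nearest coding gene in RefSeq, the neurotensin receptor NTSR1, was under 1 TPM in every library.

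LINC00467 was the only called gene of high level. It has been reported to encode a peptide of the mitochondrial ATP synthase, although RefSeq lists it as a long non-coding RNA. Its levels were 21.99 and 32.7 TPM in siControl and 96.2 and 88.8 TPM in siCNOT4, from 216, 365, 900 and 821 reads. It rose by 1.75 on log2(TPM + 1) (SE 0.24, limma adjusted p = 0.0235), a ratio of means of 3.38. Its coding neighbour TRAF5, a signalling adaptor, had overlapping groups (16.1 and 11.3 against 14.1 and 16.2 TPM, adjusted p = 0.702).

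LINC00035, on chromosome 7, is listed in RefSeq as BICDL3P, a transcribed pseudogene, so reads from a related gene cannot be told apart here. It was almost unread in siControl, with 1 and 2 reads (0.163 and 0.287 TPM), and had 15 and 14 reads in siCNOT4 (2.57 and 2.43 TPM). The ratio of means was 11.1, with a counting interval of 3.44 to 56.9, and the difference was 1.52 (limma adjusted p = 0.0227). LINC00652, on chromosome 20, had 0.772 and 0.605 TPM against 3.02 and 3.24 TPM, from 18, 16, 67 and 71 reads. Its difference was 1.29 (limma adjusted p = 0.0244), with a ratio of 4.54 (counting interval 3.10 to 6.82). These 3 low genes, LINC00659, LINC00035 and LINC00652, were called in each of the 11 alternative settings in which they were fitted. Those settings reuse the same 4 libraries, and none of the 3 was fitted at a mean TPM of at least 5. Their siControl means were 0.774, 0.225 and 0.688 TPM, so each was a member only through its siCNOT4 level. LINC00467 was called in 11 of 12, the exception being TMM scaling (1.21, adjusted p = 0.0754, the highest of its alternatives, the lowest being 1.01e-06).

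The remaining 5 called genes were closer to the threshold. LINC00472, a transcript studied as a growth suppressor in breast tumours, had 1.82 and 0.672 TPM in siControl and 4.17 and 4.45 TPM in siCNOT4, a ratio of 3.46 (difference 1.29, limma adjusted p = 0.0450). Its siControl libraries differed more from each other than did those of the other called genes. LINC00858 had 0.604 and 0.506 TPM against 2.11 and 1.86 TPM, a ratio of 3.58 (difference 0.94, adjusted p = 0.0312). LINC00324 had 0.590 and 0.422 TPM against 1.43 and 1.88 TPM, a ratio of 3.27 (difference 0.82, adjusted p = 0.0433). Both had control levels under 1 TPM, so each was a member only through its siCNOT4 level. At such levels the pseudocount of 1 also makes their log2 differences smaller than the ratios.
LINC00240 had 1.26 and 1.04 TPM against 2.74 and 3.53 TPM, a ratio of 2.71 (difference 0.93, adjusted p = 0.0441). LINC00476 had 1.18 and 1.02 TPM against 2.46 and 2.77 TPM, a ratio of 2.38 (difference 0.79, adjusted p = 0.0484). In all 5 genes every siCNOT4 value lay above every siControl value. Of the 11 alternatives in which each was fitted, the call was made in 6 for LINC00858, 4 each for LINC00472, LINC00324 and LINC00476, and 3 for LINC00240. Leaving out siCNOT4 replicate 1 ended all 5 calls, and leaving out siCNOT4 replicate 2 ended all but that of LINC00858. The adjusted p over these genes' alternatives lay between 0.000179 for LINC00472 and 0.570 for LINC00476. The difference was positive for each of the 9 called genes in every setting in which it was fitted.

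**Figure D4:**
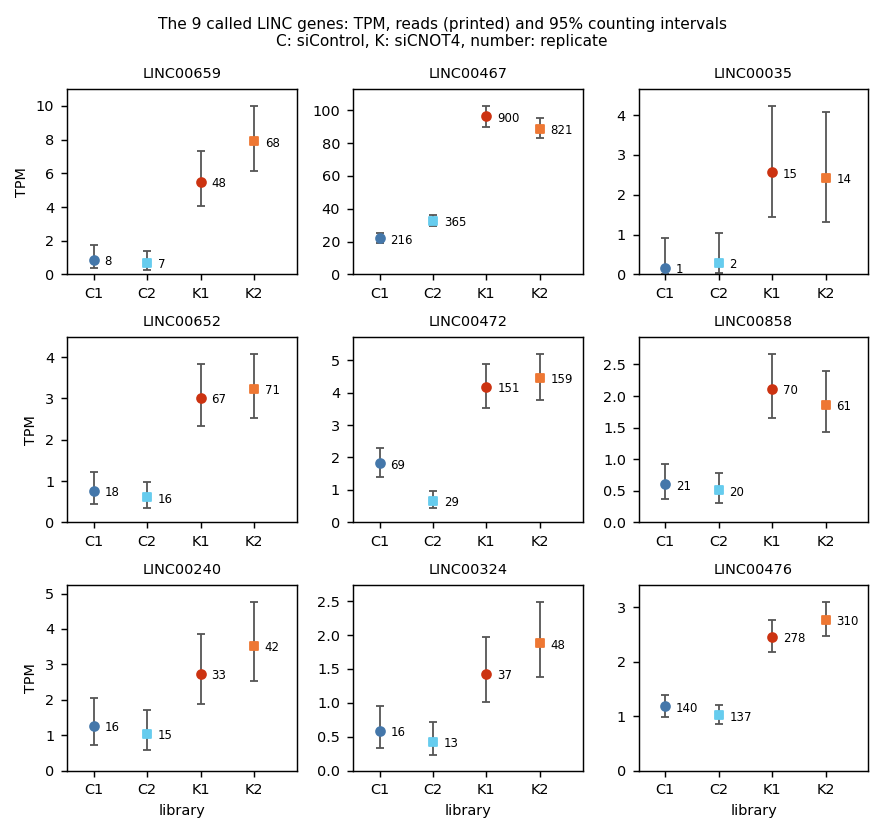
TPM of the 9 called LINC genes in each library (C1 and C2 siControl, K1 and K2 siCNOT4), with exact Poisson 95% counting intervals as bars and the recovered reads printed beside each point; each panel has its own axis starting at 0. LINC00035 rests on 1 and 2 reads in siControl, whereas LINC00467 rests on 216 or more in each library.

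The coding neighbours of the called genes had differences from near 0 to well above those of the LINC genes. LINC00240 lies next to a histone gene, HIST1H2BJ (H2BC11 in RefSeq), which encodes a replication-type histone H2B. HIST1H2BJ rose from 4.49 and 4.52 TPM to 30.8 and 34.6 TPM (difference 2.61, limma adjusted p = 0.0227). As the libraries were made from poly(A) RNA, these values cover only its transcripts with a tail. LINC00472 lies next to OGFRL1, which was at 64.1 and 35.7 against 92.7 and 81.6 TPM and did not pass (0.85, adjusted p = 0.0868). LINC00324 lies next to CTC1, a subunit of the telomere-capping CST complex, at 7.51 and 4.64 against 11.8 and 13.2 TPM (0.96, adjusted p = 0.0779). ABHD11, next to LINC00035, had 22.9 and 21.8 against 23.4 and 24.7 TPM (0.10, adjusted p = 0.742). LINC00652's neighbour SCP2D1 was at 0 in 3 of the 4 libraries.
LINC00476, named ERCC6L2-AS1 in RefSeq, is the only called gene that overlaps a coding gene. ERCC6L2, a helicase-like repair gene on the opposite strand, was at 4.25 and 1.16 TPM in siControl and 10.1 and 9.64 TPM in siCNOT4 (1.69, limma adjusted p = 0.0541). The library kit marks strand, but the strand setting of the counting is not given in the sources used here, so reads from these 2 genes may not be separated. Over all 55 genes, 11 overlap a coding gene, with 1 called (9.09%) and a median difference of 0.41. The 44 that do not had 8 called (18.2%) and a median of 0.60, beside 11.3% and 0.50 over all features. The difference between these classes was not tested.

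NORAD was the second most abundant LINC RNA, with 128 and 73.0 TPM in siControl and 192 and 202 TPM in siCNOT4, from 8897, 5735, 12672 and 13143 reads. Both siCNOT4 libraries were above both siControl libraries, by a ratio of means of 1.96 (counting interval 1.92 to 2.00). The siControl libraries differed from each other by 0.81 on log2(TPM + 1), and the group difference of 1.02 (SE 0.27) narrowly missed the threshold (limma adjusted p = 0.0569). Without siControl replicate 1 the difference was 1.42, and without siControl replicate 2 it was 0.61. Leaving out siCNOT4 replicate 1 gave 1.05, and leaving out siCNOT4 replicate 2 gave 0.98. With TMM scaling NORAD's difference fell to 0.47 (limma adjusted p = 0.135), and with quantile normalization to 0.78 (limma adjusted p = 0.0613). Of its protein partners, PUM2 had a difference of 0.71 and the RNA-binding proteins KHDRBS1 and RBMX had 0.23 and -0.30, none past the threshold (limma adjusted p = 0.160, 0.280 and 0.174). PUM2 was at 62.4 and 29.9 against 75.2 and 68.1 TPM, so that, like NORAD, it was lowest in siControl replicate 2.

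LINC00493, now SMIM26, encodes a small mitochondrial membrane protein and was the most abundant LINC gene. It was at 245 and 328 TPM in siControl and 279 and 298 TPM in siCNOT4, and the siCNOT4 values lay between those of siControl (difference 0.026, limma adjusted p = 0.918). LINC00116, now MTLN, encodes another mitochondrial microprotein and had 15.4 and 20.6 against 14.6 and 17.02 TPM (-0.17, adjusted p = 0.651). LINC00094, now BRD3OS, lies opposite the bromodomain gene BRD3 and had 11.1 and 8.13 against 16.9 and 16.9 TPM (0.77, adjusted p = 0.0964). Of the 9 members that RefSeq lists as protein coding none was called by limma, 3 reached an unadjusted p under 0.05, and their median difference was 0.36. The 45 listed as lncRNA had 8 called (17.8%) and a median of 0.59. Over all features 11.3% were called higher, 38% were higher at an unadjusted p under 0.05, and the median was 0.50. The difference between the coding and lncRNA classes was not tested. LINC00086 and LINC00087 both match the near-identical pair SMIM10L2A and SMIM10L2B, so their values are uncertain.

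LINC00339 and LINC00263 complete the 5 members of highest mean level. LINC00339 had 45.6 and 50.5 TPM in siControl and 61.5 and 62.4 TPM in siCNOT4 (0.36, limma adjusted p = 0.172). LINC00263, or OLMALINC, named for its part in oligodendrocyte maturation, had 23.0 and 22.02 against 31.2 and 29.1 TPM (0.40, adjusted p = 0.197). In both the replicates were close and the groups apart, yet both differences were under the median of all features and turned negative under TMM scaling (-0.18 and -0.12).

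At the other end, LINC00152, or CYTOR, a cytoplasmic RNA raised in many tumours, had the lowest difference of the 55. It was at 22.9 and 36.6 TPM in siControl and 17.2 and 22.2 TPM in siCNOT4, a ratio of 0.662. The groups did not overlap by a narrow margin, and the difference of -0.54 (SE 0.31) did not pass (limma adjusted p = 0.210). LINC00338, the snoRNA host SNHG20, had overlapping groups at 16.4 and 12.6 against 11.3 and 15.8 TPM (-0.096, adjusted p = 0.814). LINC00515 had 1.03 and 2.11 against 0.900 and 0.729 TPM, from 6, 14, 5 and 4 reads (-0.47, adjusted p = 0.179). With 20 reads against 9, its ratio of 0.518 has a counting interval of 0.208 to 1.19. Without siControl replicate 1 the difference passed (-0.78, adjusted p = 0.00951), within a range of 0.00951 to 0.611 over its alternatives. Among the 7 members with a negative difference the smallest limma adjusted p was that of LINC00515.

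Some uncalled genes had ratios as large as called ones. A ratio of at least 2 was seen for 16 members, and none was at or below the inverse. The share of all features with such ratios was not counted, and 81.2% of all features had a positive difference. The uncalled genes of largest difference, chosen after their values were seen, were LINC00641 and LINC00630. LINC00641 had 9.37 and 4.83 against 15.8 and 18.1 TPM (1.20, limma adjusted p = 0.0660). LINC00630 had 6.78 and 3.66 against 12.7 and 10.96 TPM (1.09, adjusted p = 0.0718). LINC00674, next in this order apart from NORAD, had 22.6 and 12.9 against 33.8 and 34.8 TPM (0.96, adjusted p = 0.0754). In all 3 the siCNOT4 libraries were close and siControl replicate 2 was well below replicate 1. Over the 55 genes replicate 1 of siControl was the higher in 42, with a median difference between the replicates of 0.22 on log2(TPM + 1), against 0.38 over all features. In siCNOT4 replicate 1 was the higher in 20, with a median of -0.050. The difference between group means was larger than both differences between replicates for 35 genes. This was not counted over all features, so it is not given as a trait of LINC genes. Both siCNOT4 libraries were above both siControl libraries in 66.4% of all features and below in 10.6%.

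The called genes were mostly of low level. Of the 35 members between 1 and 5 TPM, 8 were called (22.9%), against 25.3% of the 2813 features of that level. None of 13 between 5 and 20 TPM was called by limma, with 4 at an unadjusted p under 0.05, against 8% of features called higher there. Of the 7 at 20 TPM or more 1 was called (14.3%), against 7.78%. Of the 7 members whose siControl mean was under 1 TPM, 5 were called, and these had to be higher in siCNOT4 to be members at all. Of the 47 with both group means at 1 TPM or more, 4 were called: LINC00467, LINC00472, LINC00240 and LINC00476.
By the gene length recovered from the TPM steps, the 22 members of at least 2500 nt all had a positive difference. So did 7575 of the 8474 features of that length. In 18 of the 22 (81.8%) both siCNOT4 libraries lay above both siControl libraries, against 75.1% of all features of that length. Of these 22, 3 were called (13.6%, against 11.1% of all features of that length), with a median difference of 0.72, against 0.63. Of the 12 under 1000 nt, 4 were called (33.3%, against 10.8% of 1326 features), with a median of 0.59, against 0.14. The 4 were LINC00659, LINC00467, LINC00035 and LINC00240, of which LINC00659 and LINC00035 had siControl means under 1 TPM. The length classes were not matched for level. Of the 21 in between, 2 were called (9.52%, against 12% of 4408 features), with a median of 0.41, against 0.31. Differences between these classes were not tested.

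The values next to the threshold show what the rule admitted. Just inside were LINC00324, LINC00515 and LINC00312, the last with 1.096 and 0.801 against 1.57 and 1.42 TPM (0.36, limma adjusted p = 0.167). Just outside were LINC00473, LINC00260 and LINC00176, with means of 0.795, 0.797 and 0.818 TPM. LINC00473, a cAMP-responsive RNA, was at 0.127 and 0.0280 TPM in siControl, from 4 reads and 1 read, and at 1.07 and 1.96 TPM in siCNOT4, from 32 and 58 reads. Its ratio of means was 19.5 (counting interval 8.06 to 61.5), above that of any member. LINC00511, another gene of known function below the threshold, had 4, 3, 2 and 3 reads. LINC01420, LINC00998 and LINC01578 were looked for and are not analysed here. When all 147 LINC symbols above 0 were fitted without a filter, 9 were called higher and 0 lower by limma (6.12%, against 4.29% of all features called higher in that fit, with 50 and 1 at an unadjusted p under 0.05). The median was 0.18, against 0.35 over 19734 features.

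Other classes of non-coding RNA gave the LINC genes a setting. Of 143 antisense genes (symbols ending in AS) that passed the filter 24 were called higher (16.8%) and 6 lower, with a median difference of 0.40. Of 306 genes with LOC symbols 48 were called higher (15.7%) and 1 lower, with a median of 0.50. The share called higher was 16.4% of the LINC genes and 11.3% of all features, and 1.3% of all features were called lower. The 13 small nucleolar RNA host genes (SNHG), whose spliced transcripts are short-lived, had 0 called higher and 6 lower by limma, and a median of -0.57. Their highest difference was 0.47, while 33 of 55 LINC genes lay above the median of all features. The difference between the classes was not tested. Of the 12 genes of the nuclear exosome and its adaptors 0 were called by limma, with 6 higher and 0 lower at an unadjusted p under 0.05 (38% and 4% of all features) and a median of 0.68. The named genes of this list and the next were chosen after their values were seen. The highest difference was that of ZFC3H1, an adaptor that retains poly(A) RNA in the nucleus, at 18.04 and 8.25 against 34.5 and 35.9 TPM (1.45, adjusted p = 0.0539). The lowest was that of PABPN1, the nuclear poly(A)-binding protein, at 127 and 142 against 96.7 and 109 TPM (-0.39, adjusted p = 0.123), and EXOSC3, a subunit of the exosome core, also had both siCNOT4 libraries below (-0.24, adjusted p = 0.352). Of 10 mRNA decapping genes 1 was called, beside 11.3% of all features. It was the decapping enzyme DCP2, at 28.5 and 14.9 against 52.8 and 52.9 TPM (1.31, adjusted p = 0.0496). Its cofactor DCP1B had the lowest difference of that list, at 27.3 and 21.8 against 17.3 and 19.3 TPM (-0.40, adjusted p = 0.251). These lists were chosen with earlier results of these data known, and they are given by counts alone.

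**Figure D5:**
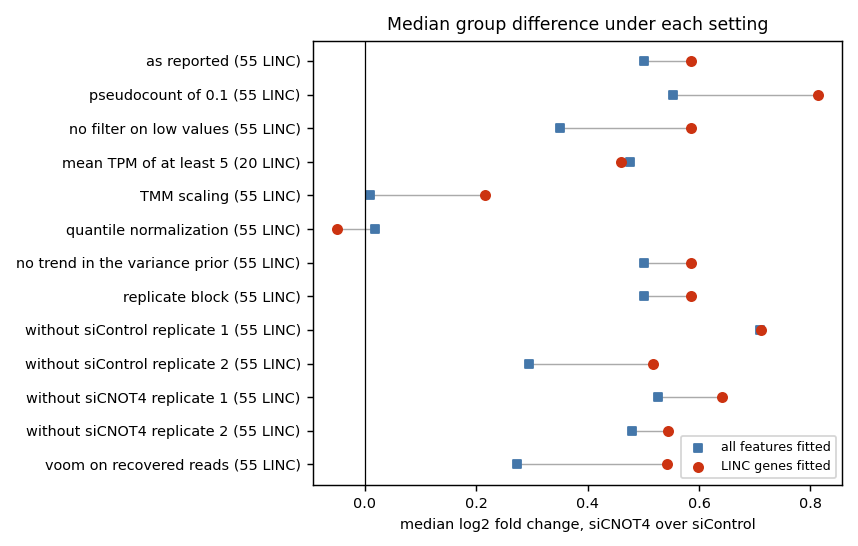
Median log2 fold change, siCNOT4 over siControl (x axis), of the LINC genes (red) and of all features fitted (blue) under each setting (y axis, with the number of LINC genes fitted). The LINC median lies above that of all features in most settings, and both move toward 0 with TMM scaling (0.22 and 0.0087) and quantile normalization (-0.049 and 0.019). With no filter the LINC genes are still the 55 of at least 1 TPM on average, beside 19734 features without that threshold. All 147 LINC symbols above 0 had a median of 0.18 in that fit, against 0.35.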

How the data were processed

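The authors deposited 1 table of TPM per library (per the file headers), made from poly(A) RNA with a stranded kit (per the labels' protocols). The submitters' processing notes name FastQC 0.11.2, STAR 2.5.3a, featureCounts and hg19. Annotation and strand setting are not given in the sources used here. Because RefSeq and GENCODE 29 tables are of GRCh38, they served for names, classes, neighbours and sequences only. By symbol 33 genes matched RefSeq, 20 by an older symbol, and 2 were ambiguous.

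TPM was taken to log2(TPM + 1). The features whose TPM averaged 1 or more were compared with limma 3.58.1 (R 4.3.3; lmFit, eBayes with a trend), siCNOT4 against siControl, n = 2 each. P-values were adjusted by Benjamini-Hochberg over all 14208 features, with a threshold of 0.05. The residual degrees of freedom were 2 and the prior ones 4.22. A log2 difference on this scale understates the change of low genes.

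Whole reads and lengths were recovered from the steps of the TPM values for all 19734 features above 0 (largest distance from a whole read among the 55 genes, 3.31e-06), up to a common factor. They summed to 27634660 and 25725806 reads in siControl and 29027938 and 28737748 in siCNOT4. Counting intervals are exact Poisson and, for ratios, exact conditional binomial, at 95%. They cover counting error only, since without molecular identifiers PCR copies are counted as separate reads. The fits were tested on simulated data.

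The genes named are the called ones, the 5 of highest mean TPM, a list of 12 genes of known function or product, and 3 on either side of the threshold, besides CNOT4 and neighbours of called genes. LINC00641, LINC00630, LINC00674, LINC00665, the promoter pair LINC00526 and LINC00667, and genes named from the other lists fall outside this rule and were chosen after their values were seen. The result for 1 gene of the lists is not reported here. Members and lists were chosen with earlier results of these data known. Alternatives were the pseudocount, filters, TMM scaling, quantile normalization, no trend, the replicate block and leaving out each library. Limma voom on the recovered reads was added after seeing the data.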

Additional observations from a re-analysis of the deposited data

How the results depend on the processing

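With 2 libraries a group and a control group of uneven replicates, the counts below are unstable, and the scaling sets how many LINC genes are positive. The number called higher by limma, 9 as reported, was 4 with a pseudocount of 0.1, 5 with no filter, 1 of 20 fitted at a mean TPM of at least 5, 3 with TMM scaling, 4 with quantile normalization, 4 with no variance trend, and 8 with voom on recovered reads. Leaving out 1 library each gave 4 to 39, with the lone library left in a group assumed to vary like the other group. The number called lower, 0 as reported, was 1 with quantile normalization (LINC00665, named after its value was seen) and 0 to 3 with a library left out. At a pseudocount of 0.1 the median difference was 0.81, with TMM 0.22, reversed to -0.049 with quantile normalization, and between 0.52 and 0.71 with a library left out. The difference of CNOT4 was -0.95 with TMM (adjusted p = 0.0359), -1.15 with quantile normalization (0.0252), -0.91 with voom (0.0393), and -0.70 to -0.32 with a library left out. CNOT4 has a mean under 5 TPM and so gave no value at that filter. The cause was not tested.

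The replicate block gave 15 called higher (23.5% of all features, 3342), and NORAD passed in it (adjusted p = 0.000333). The labels do not tie equal numbers to each other. The correlation of the replicates' differences between groups was 0.171 over 14208 features, from 2 pairs only, so the numbers were not taken as pairs.

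For the 19 named members, 218 alternatives gave 157 results of the same direction and side of the threshold, 35 past it no longer, 13 newly past it and 13 reversed. The reversed ones all concern genes that did not pass. With TMM they were LINC00493 (-0.52), LINC00339 (-0.18) and LINC00263 (-0.12). With quantile normalization they were LINC00493 (-0.049), LINC00339 (-0.0012), LINC00263 (-0.086) and LINC00312 (-0.28). With voom LINC00493 was at -0.26. With a library left out LINC00493 lay between -0.19 (siControl replicate 1) and 0.24 (siControl replicate 2), LINC00338 between -0.32 (siCNOT4 replicate 2) and 0.13 (siCNOT4 replicate 1), and LINC00116 between -0.36 (siControl replicate 1) and 0.029 (siControl replicate 2). Depth limits the low genes: 6 members had under 10 reads in at least 1 library.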
